A study of Rattus norvegicus with 6 samples.

Results

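Genes of fructose use and of the transcriptional response to carbohydrate, 6 in all, were followed across the cell classes of the rat pancreas: Slc2a5, Khk, Mlxipl, Pklr, Txnip and Arrdc4. They were chosen by name, for what they are known to do, from the 32883 genes of the files. Of the 6, 5 were found by symbol, and Mlxipl was not analysed here. The cells came from 6 male Wistar rats, 2 per group, each rat a separate library. Young rats were 2 months old, ate a normal diet and were killed at baseline. Old rats were 20 months old and had eaten the normal diet for 18 months. HFHF-old rats were also 20 months old and had received the high-fat high-fructose (HFHF) diet for the same 18 months. Islets had been enriched with collagenase P and a Histopaque-1077 gradient, so the classes do not stand in the proportions of the whole gland. The libraries are 10x Genomics 3' libraries, in which each transcript captured is counted once by its unique molecular identifier (UMI).

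Fructose enters cells through facilitative transporters, of which GLUT5, encoded by Slc2a5, is the one specialised for fructose. Ketohexokinase (Khk) then phosphorylates it, and later steps carry the product into glycolysis without passing through phosphofructokinase. The carbohydrate response element binding protein ChREBP, encoded by Mlxipl, and its relative MondoA, encoded by Mlxip, are transcription factors that respond to sugar phosphates. With their partner Mlx they bind paired E-boxes, the carbohydrate response element, and their known targets include Txnip, Arrdc4 and, for ChREBP in the liver, Pklr. Txnip and Arrdc4 encode alpha-arrestins that restrain glucose uptake, and Txnip also binds thioredoxin. Pklr encodes the liver and red cell form of pyruvate kinase, the enzyme of the last step of glycolysis.

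The start of the genes was searched for these letters in RefSeq sequence of the GRCr8 build, which is not the build the counts were made on, in windows of 250 bases before and 50 after the annotated start. The searches were for the E-box CACGTG, for the element as an E-box, any 5 bases and a second E-box, and for a looser form of the element, CANGNG, any 5 bases, then CNCNTG, on both strands. Windows were held for Slc2a5, Khk, Pklr and Arrdc4 among the 5 genes measured. The looser form occurred in the window of Pklr, from position -168 to -152, against 188 of all 33469 windows (0.562%). A single E-box occurred in the window of Arrdc4, from -177 to -172, against 2148 of all windows (6.42%). The strict element was in 1 of all windows (0.00299%), and not in those of the genes followed. A match is a match of letters and not a bound site. Both sequences are shown because Pklr and Arrdc4 carry the letters that the family of factors is known for, with the 250 bases before the start from 5' to 3' and the match in capitals. That of Pklr is chr2:176841014-176841263 on the plus strand and that of Arrdc4 is chr1:131793426-131793675 on the minus strand.
Pklr: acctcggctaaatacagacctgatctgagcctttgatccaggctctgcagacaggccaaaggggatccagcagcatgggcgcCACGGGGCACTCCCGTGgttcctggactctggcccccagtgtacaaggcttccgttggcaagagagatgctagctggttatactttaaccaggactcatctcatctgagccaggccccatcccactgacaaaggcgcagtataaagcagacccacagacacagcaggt
Arrdc4: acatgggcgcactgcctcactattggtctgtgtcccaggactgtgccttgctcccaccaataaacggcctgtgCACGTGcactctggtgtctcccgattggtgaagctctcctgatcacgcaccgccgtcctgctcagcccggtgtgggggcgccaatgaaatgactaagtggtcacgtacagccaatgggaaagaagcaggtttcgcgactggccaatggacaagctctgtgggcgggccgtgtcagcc

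The filtered matrices held 78024 barcodes, and 75201 cells were kept, with 77387928 to 166875258 UMIs per library and medians of 2537 to 9391.5 UMIs per cell. Pairs of libraries shared 20 to 64 barcodes, and 1170 cells had a barcode found in more than 1 library. Cells were clustered without the genes followed, and classes named by marker genes carry the ending "-like". Many kept cells lay outside the 11 classes followed, in other or unnamed classes. Among them were secretory cells that entered none of the 11, namely 4957 of the 10283 cells of young 2 and 4 to 1682 cells in the other rats. Of the markers listed, those highest in their own class were 8 of 10 for beta-like, 5 of 10 for alpha-like, 3 of 7 for pancreatic polypeptide (PP)-like, 17 of 17 for acinar-like, 11 of 12 for ductal-like, 14 of 15 for macrophage-like and 13 of 13 for fibroblast-like cells. HFHF-old 2 stood apart, with 3 beta-like, 3 alpha-like, 0 PP-like, 6 ductal-like and 5 macrophage-like cells, and was left out of those classes, since at least 10 cells were required. There HFHF-old 1 is the only HFHF-old rat, and the tests take its unknown spread from the young and old rats. HFHF-old 1 had 5 T-like cells and was left out of that class. Both HFHF-old rats entered the acinar-like, fibroblast-like, NK-like, B-like and endothelial-like classes.

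Levels are counts scaled to depth (CPM), the UMIs of a gene per 1000000 UMIs of the class in a rat, and means over rats are given with the standard deviation (SD). They serve to compare classes and rats for 1 gene and are not set against each other between genes. Values of rats are given in the order young 1, young 2, old 1, old 2, HFHF-old 1 and, where it had enough cells, HFHF-old 2. Exact Poisson intervals and the limits set by a count of 0 cover counting error only. Classes were compared by the exact sign-flip permutation test (two-sided) on differences within a rat, which cannot give a p below 0.0625 with 5 rats or 0.0312 with 6.

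**Figure D1:**
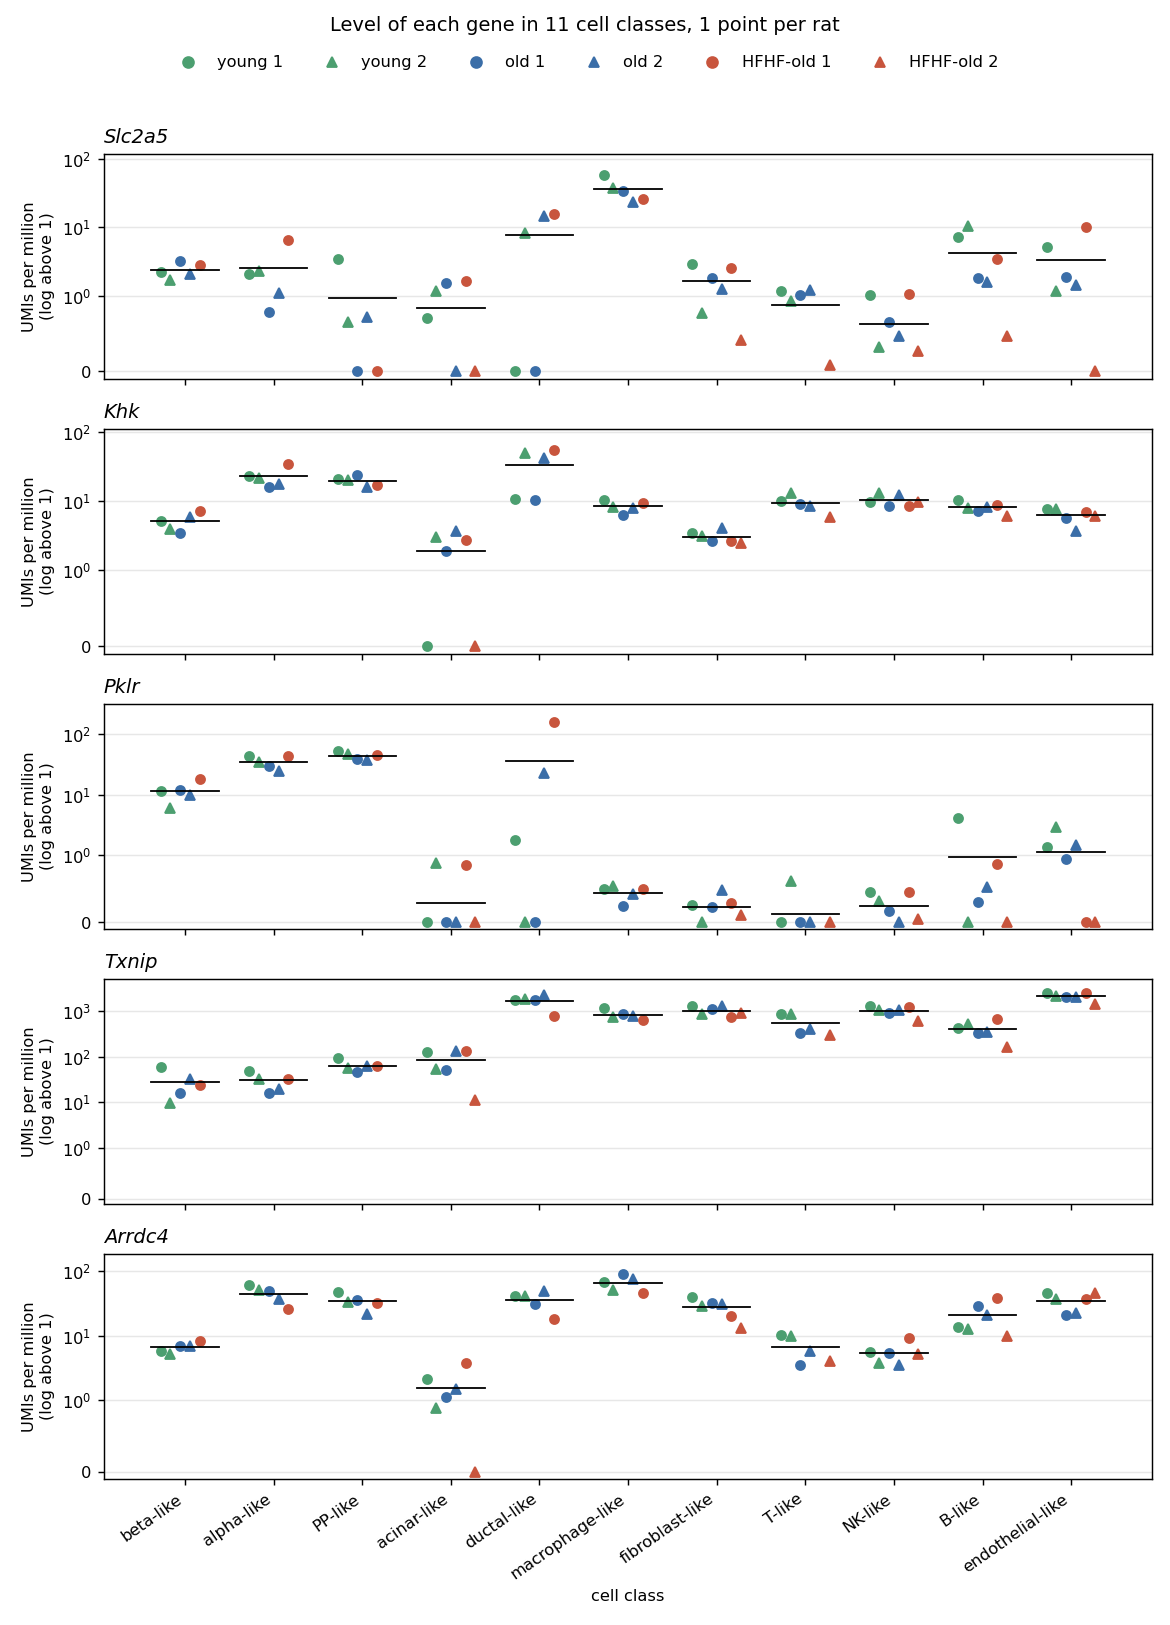
Level of each of the 5 genes (y axis, UMIs scaled to CPM, logarithmic above 1 and linear below) in 11 cell classes (x axis), with 1 point per rat with at least 10 cells and a line at the mean over rats. Slc2a5 is highest in the macrophage-like class, at 23.5 to 59.4, and Pklr stays between 5.89 and 51.6 in the 3 islet classes, while its ductal-like points spread from 0 to 156.

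Slc2a5, the fructose transporter gene, was highest in macrophage-like cells and was close to the counting limit in most other classes. In macrophage-like cells it stood at 59.4, 37.3, 34.3, 23.5 and 26.1 CPM, from 1320, 347, 294, 169 and 802 UMIs. Both young rats lay above the other 3 rats. The mean of 36.1 ± 14.2 (SD, n = 5) exceeded that of the next class, ductal-like cells, at 7.67 ± 7.55 (n = 5), in 5 of 5 rats (exact p = 0.0625, adjusted p = 0.24). In ductal-like cells 17 of 18 UMIs of old 2 and 6 of 6 of HFHF-old 1 lay in 5 cells with intestinal transcripts, described with Khk, and without them the ductal-like mean was 1.80 ± 3.58, under B-like (4.18) and endothelial-like cells (3.30). The share of macrophage-like cells with a Slc2a5 UMI was 16.9, 13.4, 17.9, 5.22 and 22.8%, at medians of 2987.5, 3894, 6484, 2082 and 10477.5 UMIs per cell. For thinning, cells with fewer than 1500 UMIs were left out and the others cut to 1500, so thinned shares cover the deeper cells only. They were 8.14, 5.89, 4.81, 3.56 and 4.62%, and HFHF-old 1, the highest and deepest rat before thinning, was then below the young rats. In NK-like cells, at medians of 3489 to 8905 UMIs, 0.176 to 0.788% of cells had a Slc2a5 UMI, and 0 to 0.227% after thinning.

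Islet cells held few Slc2a5 UMIs. Beta-like cells stood at 2.24, 1.72, 3.2, 2.09 and 2.79 CPM, from 77 UMIs over all 5 rats. With the hormone and enzyme genes, which fill much of the beta-like total, left out of it, the mean was 8.77 ± 2.00 (n = 5) and beta-like cells came second, after macrophage-like cells at 36.6. Alpha-like cells held 33 UMIs and PP-like cells 10, with 0 in old 1 and HFHF-old 1, where 3 counts would have been 4.0 and 3.36 CPM. The value of 6.49 in alpha-like cells of HFHF-old 1 rests on 3 UMIs in 23 cells, with a Poisson interval from 1.34 to 18.9. Acinar-like cells had 0 to 1.62 CPM and fibroblast-like cells 0.408 to 2.91. B-like cells ran from 0.465 to 10.5 and endothelial-like cells from 0 to 10.2, each on 63 or fewer UMIs over the 6 rats, and their order could not be told apart at this depth.

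The macrophage-like class was made of clusters that differed in size between rats. In its cluster led by Ccl24, Fcna and F13a1 the levels were 53.3, 33.1, 40.9, 27.2 and 30.8 CPM. In the cluster led by Ch25h, Cd74 and Lyz2 they were 70.3, 39.6, 26.5, 18.8 and 19.0. The cluster led by Oasl, Gpnmb and Gdf15 was made up mostly of HFHF-old 1, which gave 2462 cells, and its level stood at 26.2 there, at 96.9 in 41 cells of young 1 and at 30.9 in 33 cells of old 1. Within each cluster young 1 was the highest rat. HFHF-old 1 lay between the old rats in the first 2 of these clusters.

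**Figure D2:**
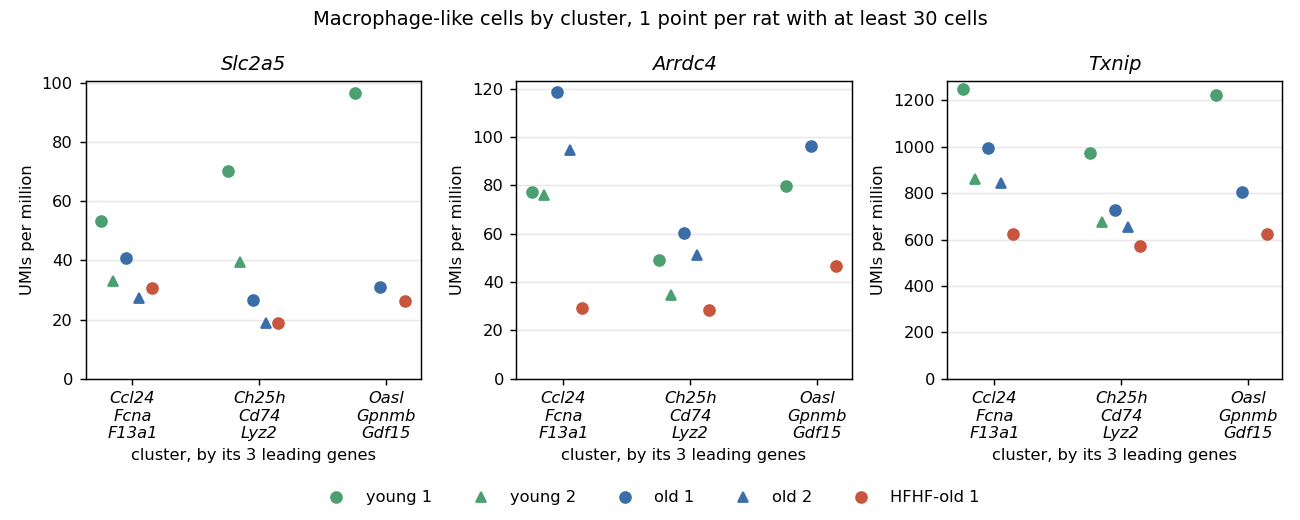
Slc2a5, Arrdc4 and Txnip (y axes, CPM) in 3 clusters of macrophage-like cells (x axes, named by their leading genes), with 1 point per rat with at least 30 cells. Arrdc4 and Txnip of HFHF-old 1 lie below the old rats in each cluster, at 29.2 against 119 and 94.8 for Arrdc4 in the first, while Slc2a5 is highest in young 1.

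Khk, the kinase that commits fructose to breakdown, was higher in alpha-like and PP-like than in beta-like cells, and its count in ductal-like cells rested partly on a handful of unusual cells. Alpha-like cells held 23.2, 21.2, 15.9, 17.7 and 34.6 CPM, the last from 16 UMIs in 23 cells. PP-like cells held 20.9, 20.1, 24.0, 15.6 and 16.8, and beta-like cells 5.04, 3.92, 3.44, 5.85 and 7.06. The level in alpha-like cells exceeded that in beta-like cells in 5 of 5 rats, by a mean log2 difference of 1.94 (SD 0.29), with the smallest p the test can give, 0.0625 (adjusted p = 0.0911 over 35 pairs). Because Ins1 alone stood at 260100 to 462500 CPM in beta-like cells, the pair was compared again with hormone and enzyme genes left out of the total. The means were then 18.3 ± 3.90 in beta-like, 36.9 ± 7.68 in alpha-like and 31.6 ± 4.51 in PP-like cells (n = 5), with the same direction in 5 of 5 rats.

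Outside the islet, Khk stood at 8.35 ± 1.496 in macrophage-like cells (n = 5), with 10.3, 8.05, 6.29, 7.94 and 9.15 CPM. T-like, NK-like and B-like cells had means of 9.22, 10.1 and 8.01, and endothelial-like cells 6.20. Fibroblast-like cells were lower, at 3.02 ± 0.577 (n = 6), and acinar-like cells stood at 1.87 ± 1.55 (n = 6) from 55 UMIs, an order that turned with hormone and enzyme genes left out of the total (3.04 and 4.34). Of the 1500 UMIs to which cells of at least that depth were thinned, 1 or more of Khk was found in no more than 5.83% of them. This held for any rat in the 11 classes, so nearly all of these cells gave no count at that depth. Ductal-like cells had the highest mean, 33.3 ± 21.4 (n = 5), with 10.5, 49.0, 10.4, 42.0 and 54.7 CPM from 6, 6, 9, 52 and 21 UMIs. Their lead over alpha-like cells held in 3 of 5 rats, and with hormone and enzyme genes left out of the total alpha-like cells came first.

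In ductal-like cells, 5 cells with intestinal transcripts, 2 in old 2 and 3 in HFHF-old 1, held most UMIs of Slc2a5 and Pklr and many of Khk. These were found after the values had been seen, as cells with at least 5 UMIs each of Fabp2, the intestinal fatty acid binding protein, and Si, sucrase-isomaltase of the brush border. Each also held 346 to 1057 UMIs of the apolipoprotein gene Apoa1 and 6 to 35 of Pklr. Of the duct genes they held 0 UMIs of Spp1, 0 to 10 of Cftr and 0 to 2 of Sox9. In old 2 they gave 27 of 52 Khk UMIs, 17 of 18 Slc2a5 UMIs and 24 of 28 Pklr UMIs. In HFHF-old 1 they gave 19 of 21, 6 of 6 and 60 of 60. Without them Khk in ductal-like cells was 21.2 in old 2 and 8.17 in HFHF-old 1, and its mean 19.9 ± 17.1 (n = 5). Pklr was 3.39 and 0 there, and Slc2a5 0.847 and 0. In all, 20 barcodes met the rule, 2 of them among the B-like cells of young 1, where they held all 17 Pklr UMIs, and 3 among the macrophage-like cells of HFHF-old 1.

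**Figure D3:**
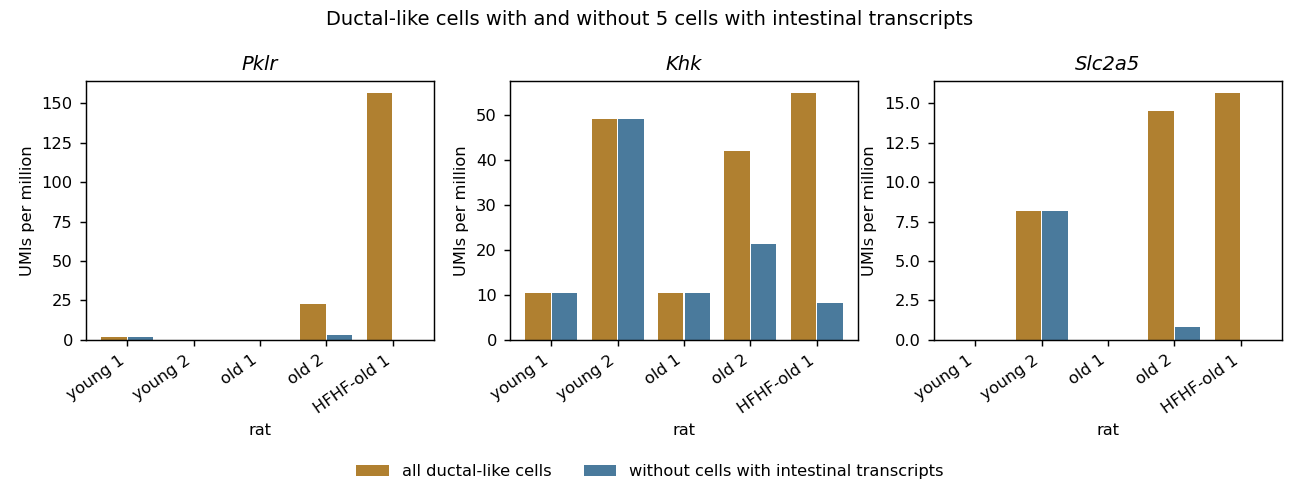
Pklr, Khk and Slc2a5 (y axes, CPM) in ductal-like cells of 5 rats (x axes), over all cells and without the 5 cells with intestinal transcripts. Without these cells the bars of HFHF-old 1 drop from 156 to 0 for Pklr, from 54.7 to 8.17 for Khk and from 15.6 to 0 for Slc2a5.

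Pklr was counted in the islet classes and, with the cells with intestinal transcripts left out, was near the counting limit in the rest. With them the ductal-like mean was 36.1 ± 67.9 CPM (n = 5), from 1, 0, 0, 28 and 60 UMIs, and without them 1.03 ± 1.52. PP-like cells held 51.6, 46.7, 38.6, 37.6 and 44.8 CPM (mean 43.9 ± 5.83, n = 5), alpha-like cells 44.1, 34.2, 29.1, 24.1 and 43.2 (34.95 ± 8.73, n = 5) and beta-like cells 11.5, 5.89, 11.8, 9.69 and 17.9 (11.4 ± 4.36, n = 5). PP-like cells exceeded alpha-like and alpha-like exceeded beta-like cells in 5 of 5 rats each. Both had exact p = 0.0625 (adjusted p = 0.0911 over the same set of pairs as for Khk). Adjusted over the neighbours in the order of classes, the exact test of alpha-like over beta-like cells gave 0.24. The difference of alpha-like over beta-like cells was 1.58 (SD 0.51) on the log2 scale. With hormone and enzyme genes left out of the total the means were 71.3, 57.2 and 39.3 CPM, in the same order. A Pklr UMI was found in 37.4 to 59.3% of PP-like, 32.5 to 52.6% of alpha-like and 15.2 to 40.9% of beta-like cells. After thinning these shares were 2.33 to 9.71%, 2.52 to 13.0% and 0.971 to 4.11%.

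In macrophage-like cells Pklr stood at 0.495, 0.537, 0.233, 0.418 and 0.489 CPM, from 2 to 15 UMIs a rat. The amount that free RNA of islet and acinar-like cells could carry into them, scaled from the counts of Ins1, Gcg, Ppy and Prss1 there, was 0.245, 0.513, 0.173, 0.19 and 0.157. The Poisson interval of the level held this amount in young 2, old 1 and old 2, and began at 0.247 in young 1 and 0.273 in HFHF-old 1. Without 3 cells with intestinal transcripts the level of HFHF-old 1 was 0.326. Fibroblast-like and NK-like cells held 27 and 13 Pklr UMIs over 6 rats, and T-like cells 2 over 5 rats.

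Txnip was abundant in endothelial-like, ductal-like, stromal and immune cells and low in islet cells. Endothelial-like cells held 2474, 2102, 2002, 2050, 2484 and 1442 CPM (mean 2092 ± 383, n = 6) and ductal-like cells 1698, 1823, 1695, 2220 and 787 (1645 ± 526, n = 5). Fibroblast-like cells had a mean of 1023 ± 231, NK-like cells 1020 ± 252 (n = 6 each) and macrophage-like cells 832 ± 202 (n = 5). T-like and B-like cells followed at 541 ± 272 (n = 5) and 407 ± 168 (n = 6). Ductal-like exceeded fibroblast-like cells by 0.61 on the log2 scale (SD 0.37) and NK-like exceeded macrophage-like cells by 0.43 (SD 0.36), each in 5 of 5 rats (exact p = 0.0625, adjusted p = 0.24), and the other neighbours among these 7 classes were in this order in 3 or 4 rats.

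Beta-like cells held 58.3, 9.81, 16.0, 32.1 and 23.7 CPM of Txnip, with a spread of 28.0 ± 18.9 (SD, n = 5) in which the groups overlapped. Alpha-like cells held 49.4, 33.1, 15.9, 19.7 and 32.4, and PP-like cells 93.5, 55.5, 46.6, 61.3 and 61.5. PP-like exceeded alpha-like cells in 5 of 5 rats, by 1.12 on the log2 scale (SD 0.39, exact p = 0.0625). The adjusted p was 0.0911 over the set of pairs used for Khk and 0.24 over the neighbours in the order of classes. Without hormone and enzyme genes in the total the beta-like mean was 100.3 and the PP-like 103.6, against 842.6 in macrophage-like cells.

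Arrdc4 was lower in beta-like than in alpha-like cells, like Khk and Pklr, and was also high in macrophage-like cells. Alpha-like cells held 60.8, 51.6, 49.3, 37.4 and 25.9 CPM and beta-like cells 5.88, 5.15, 6.89, 6.90 and 8.38, a difference of 2.55 on the log2 scale (SD 0.68) in the same direction in 5 of 5 rats (exact p = 0.0625, adjusted p = 0.0911). With hormone and enzyme genes left out of the total the means were 76.0 and 24.2, again with alpha-like cells higher in 5 of 5 rats. PP-like cells held 47.5, 32.8, 36.0, 21.8 and 32.5. Macrophage-like cells had the highest mean, 66.3 ± 19.0 (n = 5), and alpha-like cells came next at 45.0 ± 13.6 (n = 5), an order that turned when hormone and enzyme genes were left out of the total, with 67.2 and 76.0. Ductal-like, endothelial-like and fibroblast-like cells had means of 36.3, 34.9 and 27.4, B-like cells 20.6, T-like cells 6.73 and NK-like cells 5.47. Acinar-like cells had 0 to 3.78 CPM.

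Over the 50 pairs of neighbours in the order of classes for the 5 genes, 0 passed an adjusted p of 0.05 in the exact permutation test. None could have passed, because the smallest p that 4 to 6 rats allow is too large after adjustment, so this count decides nothing. An exact p of 0.0625 became 0.24 after adjustment over these neighbours and 0.0911 over the separate set of pairs first used for Khk. The 2 values therefore do not differ in evidence. The order itself was also taken from the means of the same rats. Only pairs with 6 rats could reach an unadjusted p below 0.05, and 2 did. These were Txnip in B-like over acinar-like cells and Arrdc4 in NK-like over acinar-like cells, each in 6 of 6 rats. Genes whose means over the 11 classes followed those of a member most closely were taken by Pearson r of log2 levels, as a description in which classes share libraries and depth and the ductal-like means include the cells with intestinal transcripts. For Slc2a5 they were Kcng2 (0.942), Ninj1 (0.922) and Soat1 (0.917), of which Soat1 esterifies cholesterol, and each was highest in macrophage-like cells. Pklr was followed by Exph5 (0.995), Evpl (0.989) and Syt17 (0.988), with the first 2 highest in PP-like and the third in alpha-like cells. Khk was nearest to Coa3, Ndufc1 and Coq4 (0.957, 0.945 and 0.939), of which Coa3 and Coq4 serve mitochondrial respiration and Ndufc1 is a subunit of its complex I. Txnip was nearest to Myl12a, Anxa2 and Clec2g (0.973, 0.955 and 0.955) and Arrdc4 to Sumo3, Scamp1 and Plekhb2 (0.962, 0.961 and 0.954).

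The effect of the diet was tested on UMIs summed per rat and class, HFHF-old against old, with edgeR's quasi-likelihood test and Benjamini-Hochberg adjustment over all genes tested in a class. A gene was called at an adjusted p under 0.05 and a change over 1.5-fold. Of the 55 pairs of a gene and a class, 39 had enough counts to be tested, and 0 were called by edgeR (smallest adjusted p = 0.154) and 0 by DESeq2. Of all genes, this rule called 0.101% in beta-like, 0.135% in alpha-like, 0.191% in PP-like, 0.0% in acinar-like, 0.512% in ductal-like, 0.0681% in macrophage-like, 0.0% in fibroblast-like, 0.122% in T-like and 0.0% in NK-like, B-like and endothelial-like cells. At an unadjusted p under 0.05 there were 6 of the 39, 2 of them higher, against 9.03% of all genes and classes. The fitted change was below 0 in 29 of 39. The scaling mattered most in the islet and acinar-like classes, where library size alone, in place of TMM factors, moved the median of all genes by 0.88 in beta-like, 0.81 in alpha-like, 0.50 in PP-like and 0.53 in acinar-like cells on the log2 scale. Changes are therefore given relative to TMM, and 8 of those in islet cells turned from below to above 0 with library size alone, while that of Txnip in acinar-like cells was -0.89 and -0.28. Acinar-like Txnip stood at 125, 52.3, 51.5, 135, 130 and 11.3 CPM, the last from 3 UMIs in 52 cells, so the groups overlapped, and leaving out each rat gave -2.84 to -0.05.

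**Figure D4:**
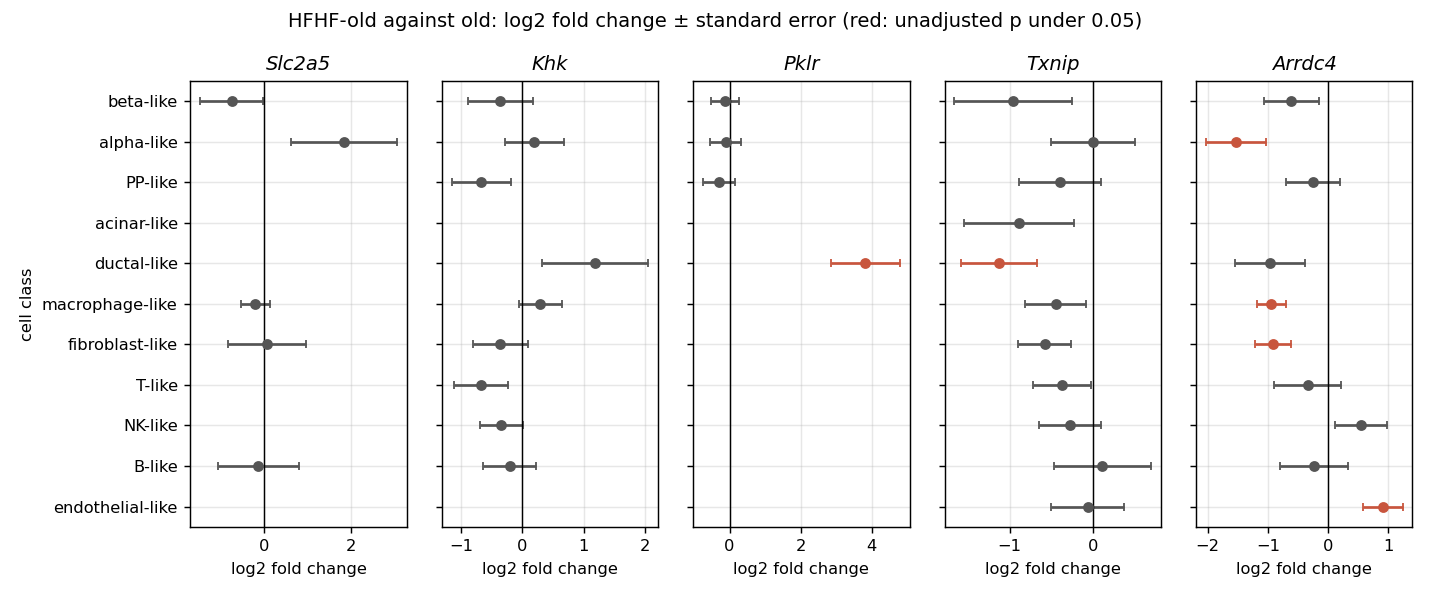
Log2 fold change of HFHF-old against old rats with its standard error (x axes, scaled separately per gene) for each gene and class tested (y axis), from edgeR with TMM. Points in red have an unadjusted p under 0.05, and 0 of the 39 passed the adjusted threshold. In beta-like, alpha-like and PP-like cells, 8 changes below 0 lie above 0 when scaled by library size alone.

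Among the members, Arrdc4 had 4 of the 6 differences with an unadjusted p under 0.05, 3 lower and 1 higher, and none was called. In macrophage-like cells it stood at 67.6, 50.3, 92.2, 75.9 and 45.7 CPM, so that HFHF-old 1 was the lowest rat, with a change of -0.94 (standard error 0.25, adjusted p = 0.217 by edgeR). HFHF-old 1 was also the lowest in the cluster led by Ccl24 (29.2 in 125 cells against 119 and 94.8 in the old rats), in that led by Ch25h (28.4 in 77 cells against 60.2 and 51.1) and in that led by Oasl (46.4 against 96.3 in old 1). In fibroblast-like cells Arrdc4 stood at 39.8, 28.6, 32.3, 30.6, 19.9 and 13.1, and both HFHF-old rats were below the other 4, with a change of -0.92 (standard error 0.30, adjusted p = 0.689), or -1.33 without HFHF-old 1 and -0.62 without HFHF-old 2. Fibroblast-like cells of HFHF-old 1 lay mostly in the cluster led by Col8a1, Gfpt2 and Has2 (1808 cells) and those of HFHF-old 2 in that led by Adamts5, Nox4 and Gfpt2 (653 cells), clusters with few cells of the old rats.

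Endothelial-like cells went the other way for Arrdc4, with 46.6, 36.6, 20.8, 22.4, 37.5 and 45.6 CPM. The HFHF-old rats, on 22 and 30 UMIs, exceeded the old rats and lay between the young ones, with a change of 0.91 (standard error 0.33, adjusted p = 0.99), or 0.50 without doublets. In alpha-like cells the change was -1.53 (standard error 0.50, adjusted p = 0.391), where HFHF-old 1 gave 12 UMIs in 23 cells, and -0.73 with library size alone. Changes in the other classes ran from -0.97 in ductal-like to 0.55 in NK-like cells, and those in beta-like and PP-like cells turned above 0 with library size alone. In ductal-like cells Arrdc4 of HFHF-old 1 stood at 18.2 CPM, and at 28.6 without its 3 cells with intestinal transcripts. Those 3 cells held 0 Arrdc4 UMIs. The old rats stood at 31.3 and 51.6 without such cells.

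Txnip had a fitted change below 0 in 9 of 11 classes, between -1.13 and 0.12 over all 11, and none was called. With library size alone the change in PP-like cells turned to 0.18. Under the same scaling it went from 0.002 to 0.855 in alpha-like and from -0.956 to -0.033 in beta-like cells. In fibroblast-like cells it stood at 1252, 851, 1101, 1301, 728 and 905 CPM. The old rats lay above the HFHF-old rats, between which young 2 fell, and the change was -0.58 (standard error 0.32, adjusted p = 0.842). The clusters of this class did not all share that order. In the cluster led by Nov, PCOLCE2 and Aspn, Txnip stood at 1105, 611, 821, 1013 and 1015, the last from 54 cells, so HFHF-old 1 was not below the old rats there. In that led by Sfrp1, Il6 and Smoc2, HFHF-old 1 stood at 769 against 1026 and 1042 in the old rats. Macrophage-like cells held 1157, 744, 871, 761 and 625, with HFHF-old 1 lowest (-0.45, standard error 0.37, adjusted p = 0.637). In ductal-like cells HFHF-old 1 stood at 787 against 1695 and 2220 in the old rats (-1.13, standard error 0.46, adjusted p = 0.371), and at 1209 without the cells with intestinal transcripts, where the change was -0.76. NK-like cells overlapped, with 1227 and 593 in the HFHF-old rats against 901 and 1043 in the old, and most NK-like cells of HFHF-old 2 formed a cluster of their own. B-like cells spread from 161 to 654 between the 2 HFHF-old rats.

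For the fructose genes the diet contrast gave differences that were small, poorly counted or dependent on the scaling. In macrophage-like cells Slc2a5 gave -0.20 (standard error 0.33, adjusted p = 0.823), and HFHF-old 1, at 26.1, lay between the old rats at 34.3 and 23.5. Khk gave 0.30 (standard error 0.36, adjusted p = 0.754) there. In beta-like cells Khk gave -0.36 (standard error 0.53), which turned to 0.57 with library size alone. In alpha-like cells it gave 0.19 (standard error 0.48), and 1.037 with library size alone. Fibroblast-like cells gave 0.07 (standard error 0.90) for Slc2a5, on 4 to 111 UMIs per library of the older rats, and -0.36 (standard error 0.45) for Khk. Pklr gave -0.13 in beta-like, -0.10 in alpha-like and -0.30 in PP-like cells, with standard errors of 0.39, 0.44 and 0.45, and 0.75, 0.71 and 0.24 with library size alone. The largest value, 3.81 for Pklr in ductal-like cells (standard error 0.97, adjusted p = 0.154), rests on the 3 cells with intestinal transcripts in HFHF-old 1, and without such cells too few counts were left to test it. The value of Khk in ductal-like cells went from 1.18 to -0.99 when they were left out.

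Age was compared as old against young in the same fits. Again 0 of 39 pairs were called by edgeR (smallest adjusted p = 0.122), with 5 at an unadjusted p under 0.05, 1 of them higher, against 6.11% of all genes and classes. Of all genes, the rule called 0.0274% in beta-like, 0.144% in alpha-like, 0.281% in PP-like, 0.0559% in acinar-like, 0.0% in ductal-like, 0.0151% in macrophage-like, 0.00727% in fibroblast-like, 2.93% in T-like, 0.0171% in NK-like, 0.00916% in B-like and 0.0% in endothelial-like cells. DESeq2 called 1, Txnip in T-like cells, with 837 in both young rats, 329 and 395 in the old rats and 305 in HFHF-old 2 (edgeR -1.06, standard error 0.28, adjusted p = 0.122, and DESeq2 adjusted p = 0.00989). Both young rats were more than 2 times as high as the rest, and T-like cells were also the class with most genes called by edgeR, at 2.93%. The share of all genes that DESeq2 called is not given here, so its call has no background beside it. Slc2a5 in macrophage-like cells was -0.71 (standard error 0.27, adjusted p = 0.425 by edgeR), from -1.01 without young 2 to -0.35 without young 1. Over the class both young rats were above both old rats, but in the cluster led by Ccl24 old 1 (40.9) was above young 2 (33.1). Slc2a5 in B-like cells was -2.25 (standard error 0.76, adjusted p = 1.0), from 7.31 and 10.5 in young to 1.79 and 1.56 in old rats, and young 1 was 6.43 without its 2 cells with intestinal transcripts. Arrdc4 was 0.55 (standard error 0.20, adjusted p = 0.411) in macrophage-like and -0.95 (standard error 0.31, adjusted p = 0.999) in endothelial-like cells. The contrasts share the old rats, so opposite signs in them are not independent.

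The other genes of these pathways were taken from 4 lists, which also hold the members. In the diet contrast no gene was called in any class by edgeR among the 10 genes of fructose uptake and breakdown (82 pairs of gene and class tested, 4 at an unadjusted p under 0.05), the 20 carbohydrate response factors and targets (133 pairs, 23), the 6 alpha-arrestins (50 pairs, 6) and the 21 genes of glycolysis (170 pairs, 16). Over the 11 classes the median change of the alpha-arrestins ran from -0.97 in ductal-like to 0.00 in NK-like cells. That of the fructose genes ran from -0.95 in acinar-like to 0.54 in ductal-like cells. The carbohydrate response list ran from -0.13 in PP-like to 0.83 in ductal-like cells, and glycolysis from -0.96 in alpha-like to 0.89 in ductal-like cells. These stand beside -0.06 to 0.02 for all genes tested. Arrdc3, a further alpha-arrestin, stood at 74.5, 53.1, 93.3, 86.9 and 51.7 CPM in macrophage-like cells, with HFHF-old 1 lowest (-0.87, standard error 0.26, adjusted p = 0.241).

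Mlxip, which encodes MondoA, was not called in any class, and its fitted change ran from -0.09 in endothelial-like to 2.54 in acinar-like cells over 11 classes, which share the same rats and are not independent. In alpha-like, PP-like and ductal-like cells it was 0.20, 0.44 and 1.02 (standard errors 0.61, 0.57 and 0.50), and 0.997, 1.015 and 0.825 with library size alone. In B-like cells it stood at 48.5, 45.3, 46.9, 43.8, 120 and 71.2 CPM, with both HFHF-old rats above the other 4 (0.95, standard error 0.30, adjusted p = 0.766). In NK-like cells the levels were 39.9, 26.7, 41.9, 26.9, 59.0 and 76.2 (0.85, standard error 0.27, adjusted p = 0.399), and in macrophage-like cells 64.2, 48.7, 55.7, 53.3 and 91.5 (0.68, standard error 0.22, adjusted p = 0.268). Fibroblast-like cells overlapped, at 33.7 and 41.3 in HFHF-old against 33.7 and 36.0 in old rats. Beta-like cells held 6.44, 3.68, 4.18, 2.86 and 14.1 (1.17, standard error 0.44, and 2.035 with library size alone). Acinar-like cells held 4.24, 6.50, 1.13, 0.731, 10.2 and 3.75, the last on 1 UMI (2.54, standard error 0.89, adjusted p = 0.665). T-like cells gave 0.65 (standard error 0.34, adjusted p = 0.524), with 44.1 in HFHF-old 2 against 27.7 and 24.5 in the old rats. Pfkfb3, which makes an activator of phosphofructokinase, was 23.0, 15.8, 52.6, 34.1, 18.2 and 13.8 in fibroblast-like cells, higher in each old rat than in each HFHF-old rat (-1.43, adjusted p = 0.509 by edgeR).

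Old against young, 2 pairs from the lists were called, both higher. They were 1 of 82 pairs tested for fructose uptake and breakdown and 1 of 170 for glycolysis. None was called among 133 pairs of carbohydrate response factors and targets and 50 of alpha-arrestins. Of all genes, the rule called 0.144% in alpha-like and 2.93% in T-like cells, the classes of these calls. Slc2a2, which encodes GLUT2, a carrier of glucose and fructose, was 1.86 and 1.60 CPM in alpha-like cells of the young rats, 29.9 and 38.2 in the old rats and 6.49 in HFHF-old 1 (4.83, standard error 0.41, adjusted p = 0.000292). It is a beta cell gene in the rat, at 391, 279, 476, 240.5 and 427 in beta-like cells. Ins1 in the same alpha-like cells was 819.3, 3764, 16470, 68610 and 3805 CPM. With islet cells assigned by their share of hormone transcripts in place of clusters the Slc2a2 change was 0.79 (adjusted p = 1.0), so the call was lost. Slc2a3, which encodes the glucose transporter GLUT3, was 24.6 and 28.4 in T-like cells of young rats, 94.5 and 78.8 in old rats and 110 in HFHF-old 2 (1.84, standard error 0.25, adjusted p = 0.0127, and 0.0661 with no filter on low counts).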

How the data were processed

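Pancreatic cells of 6 rats were sequenced from 10x Genomics 3' libraries (v3.1 chemistry). The deposited values are whole-number counts of UMIs per gene and barcode, which the authors made with Cell Ranger (version 5.0.0 per the file headers) on the build Rnor 6.0 per the labels, without normalization. Barcodes with fewer than 200 genes, over 25% mitochondrial UMIs or a gene number in the top 1% were left out, 2823 in all. Log-normalized counts of 2000 variable genes, without the 52 genes followed or listed, were clustered with leidenalg 0.10.2 in Python 3.11.15. A cluster took the class of which at least 60% and at least 3 markers had a log2 fold of at least 1, limits set after the clusters were seen. PP-like cells were islet cells with Ppy or Pyy as the most abundant hormone. Doublets were marked but kept, and free RNA was not removed.

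Counts were summed per rat and class and tested with edgeR 4.0.16 (TMM, filterByExpr) in R 4.3.3, with 3 residual degrees of freedom, or 2 where 1 rat was left out. DESeq2 1.42.0, other scalings, filters and cell choices and leaving out each rat were alternatives. Named genes were the members, the 3 list genes with the smallest p per class and contrast, and the 3 nearest genes in pattern. Others, such as Mlxip in fibroblast-like cells, were chosen after their values were seen. The members and lists were chosen with earlier results of these data known. Tests were checked on simulated counts.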

Additional observations from a re-analysis of the deposited data

Results flagged for a closer look

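Arrdc4 differed in direction between classes. In endothelial-like cells both HFHF-old rats were above both old rats and in fibroblast-like cells both were below, and the log2 ratios of the group means, with a pseudocount of 1, differed by 1.81. The difference itself was not tested. With 2 rats per group, groups that do not overlap are common without any true difference. Khk in endothelial-like, Txnip in fibroblast-like and Pklr in endothelial-like cells did not overlap either. The 2 endothelial-like pairs rested on few counts, 54 UMIs of Khk and 12 of Pklr over the 6 rats. Khk stood there at 6.81 and 6.08 CPM in HFHF-old against 5.66 and 3.61 in old rats. Pklr stood at 0 and 0 against 0.943 and 1.44. The other pairs of gene and class with both HFHF-old rats overlapped. The share of all genes without overlap is not given here.

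Slc2a5 was also counted in cells outside the 11 classes. In a cluster left unnamed, led by Olr1, Alcam and Slpi, it stood at 18.1 CPM in HFHF-old 1 (344 UMIs in 1541 cells), at 25.8 in young 1 (77 cells) and at 6.66 in old 1 (97 cells), and the cluster held 12.9% of the cells of HFHF-old 1 and 0.0256 to 1.31% of those of the other rats. In dendritic-like cells the median over the 5 rats with at least 30 cells was 10.4 CPM, from 8.08 in old 2 to 19.5 in young 1. HFHF-old 1 had 27 such cells and is not among them, so HFHF-old 2, at 9.69, is the only HFHF-old rat there.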

How the results depend on the processing

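The members called in HFHF-old against old rats numbered 0, but 2 with no filter on low counts (Pklr in ductal-like and Arrdc4 in macrophage-like cells), 1 with the replicate number as a block (Pklr in ductal-like cells, 7.16) and 0 to 1 when each rat was left out, with 1 without old 1 (Pklr in ductal-like cells, 2.94) and 1 without old 2 (Pklr again, 9.39). Old against young gave 1 with DESeq2, 1 with no filter on low counts (Slc2a5 in macrophage-like cells) and 0 to 1 with each rat left out, 1 without old 1 (Pklr in ductal-like cells, 3.799). The shares of all genes called under these settings are not given here. Replicate numbers were treated as names, since same-numbered rats are different animals and their deviations correlated by -0.241 to 0.371, above 0.1 in 10 of 21 comparisons. Of 609 log2 fold changes under the alternatives, 567 kept direction and side of the threshold and 34 turned sign, none of them called. The turned values, HFHF-old against old, were as follows. With library size alone, Arrdc4 was 0.28 in beta-like and 0.22 in PP-like cells, Khk 0.57 and Slc2a5 0.12 in beta-like cells, Pklr 0.75, 0.71 and 0.24 in beta-like, alpha-like and PP-like cells and Txnip 0.18 in PP-like cells. The replicate block gave 0.087 for Khk in beta-like, -0.31 for Slc2a5 in fibroblast-like and -0.034 for Txnip in B-like cells. Without doublets Arrdc4 was 0.29 in B-like and Slc2a5 -0.43 in fibroblast-like cells. Txnip in alpha-like cells was -0.057 with no filter and -0.24 with classes by share of transcripts, and Khk in ductal-like cells -0.99 without cells with intestinal transcripts, an alternative added after the values were seen. Leaving out each rat gave ranges that crossed 0 for Arrdc4 in T-like (-0.60 to 0.14) and B-like cells (-1.45 to 0.49), for Khk in beta-like (-0.70 to 0.25), alpha-like (-0.004 to 0.51), fibroblast-like (-0.69 to 0.0), NK-like (-0.69 to 0.10) and B-like cells (-0.46 to 0.042), for Slc2a5 in macrophage-like (-0.39 to 0.078), fibroblast-like (-1.97 to 0.78) and B-like cells (-1.87 to 0.90), and for Txnip in alpha-like (-0.26 to 0.42), PP-like (-0.73 to 0.19), NK-like (-0.83 to 0.14), B-like (-1.22 to 0.79) and endothelial-like cells (-0.57 to 0.30). The cause was not tested. Thinning moved 39 of 55 shares of cells with a UMI, and 25 of 485 levels moved by more than 1 SD.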
